A study of Mus musculus with 10 samples.

Results

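Of the 28185 genes in the deposited table, 9 genes of antigen presentation were followed, chosen by name. They were the MHC class II chains H2-Aa, H2-Ab1 and H2-Eb1, the invariant chain Cd74, the transcriptional regulator Ciita, the peptide-exchange chains H2-DMa and H2-DMb1, and the co-stimulatory ligands Cd80 and Cd86. RNA-seq had been carried out on cells selected with anti-Ly6G microbeads from infarcted hearts and from blood of male C57Bl/6J mice aged 12 to 16 weeks, taken 3 days after the left coronary artery (LCA) had been tied off, which causes a myocardial infarction (MI). All 10 libraries came from mice with an MI. MI (libraries 13, 19 and 20) and Blood (libraries 21 and 22) were cardiac and blood cells of mice that received no mesenchymal stromal cells (MSC). MI + MSC (libraries 15, 17 and 18) and Blood + MSC (libraries 23 and 24) were the same 2 sources from mice given syngeneic bone-marrow MSC under the skin at 3 sites, with 1000000 cells at each site. The batch named in the labels was the same as the group, so batch and group cannot be told apart, and the labels do not tie a heart to the blood of the same mouse. The methods treat single animals as the experimental unit and describe drawing blood by cardiac puncture before the hearts were taken. Heart and blood libraries may therefore come from the same mice, and the labels do not say which library came from which animal. The comparisons of heart with blood and the interaction treated all libraries as independent. If any libraries shared an animal, the p-values cover only the spread between libraries.

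MHC class II molecules show peptides from engulfed material to CD4+ T cells. H2-Aa and H2-Ab1 encode the α and β chains of I-A, and H2-Eb1 encodes the β chain of I-E. Cd74 fills the groove during assembly and steers the complex to endosomes, where the H2-DM dimer exchanges the remaining Cd74 fragment for peptide. Ciita is the master co-activator that switches the class II genes on together, and interferon gamma is a strong inducer of it. Cd80 and Cd86 bind CD28 or CTLA-4 on T cells and provide or limit the second signal. Dendritic cells, B cells and macrophages are the classical class II cells, whereas resting neutrophils carry little class II and can acquire it during inflammation. C57BL/6 mice carry a deletion at H2-Ea and make no I-E α chain, so H2-Eb1 has no partner at the surface. H2-Ea was not analysed here.

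Class II promoters carry a conserved pair of elements, the X box, bound by the RFX complex, and the Y box, bound by NF-Y, onto which Ciita is recruited. The stretch that holds both is shown for the 3 members in which it was found. Its part in their levels was not tested. Sequences are from RefSeq, build GRCm38.p6, each written 5′ to 3′ on the strand of its gene, and capitals mark the 5 letters of the X-box-like and the 5 letters of the Y-box-like element. They lay upstream of the start at chr17:34287857-34287914 (minus strand), chr17:34305766-34305822 (plus strand) and chr17:34153087-34153144 (plus strand), in the order given.
H2-Aa: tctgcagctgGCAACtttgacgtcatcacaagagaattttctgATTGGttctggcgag
H2-Eb1: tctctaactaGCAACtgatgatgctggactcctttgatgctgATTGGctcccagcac
H2-DMb1: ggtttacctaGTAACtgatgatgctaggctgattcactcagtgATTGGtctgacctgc

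The first element began 81, 91 and 94 bases before the start of H2-Aa, H2-Eb1 and H2-DMb1, and the gap between the elements was 28, 27 and 28 bases. The search, with letters and gap chosen with these promoters in view, was for GCAAC, then 25 to 29 bases of any kind, then ATTGG, on either strand. It found a match in 77 of 32851 mouse promoters of the same length (0.234%), among them 2 of the 5 members with a promoter in the table (H2-Aa and H2-Eb1) and 3 of the 4 other class II genes there (H2-Eb2, H2-Oa and H2-Ob). Allowing GTAAC in first place added H2-DMb1 and raised the share to 0.347% (114 promoters). ATTGG alone was in 37.4% of promoters, and in 4 of the 5 members, H2-DMa included. The promoter of Cd80 held neither pattern in this window. Promoters of H2-Ab1, Cd74, Ciita and Cd86 were not printed or searched. A match in letters is a description and not a measured binding site.

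The libraries differed in depth by 57.9-fold, from 148594 reads on genes in MI 13 and 268860 in Blood 21 to 8602711 in Blood + MSC 24. In the 2 shallowest, 1 read was worth 8.40 and 7.07 normalized counts (read counts divided by a size factor of the library), against 0.168 to 2.30 in the others. Blood 21 also stood apart by its platelet genes, whose 5 measured markers summed to 23938 normalized counts, against 437 to 1747 in the other 9 libraries. Neutrophil genes were present in every library, with sums over 12 markers of 16764 to 53435 normalized counts in the blood libraries and 2547 to 13564 in the cardiac ones, and Ly6g itself, the antigen used for selection, ranged from 4.75 to 26.9 in hearts and from 41.2 to 645 in blood. The 12 macrophage and monocyte markers summed to 3404 to 12316 normalized counts over all libraries, and the 6 cardiomyocyte markers to 3009 to 23360 in the cardiac libraries against 10.4 to 63.6 in blood. The values below therefore belong to Ly6G-selected material in which genes of other cell types were also measured. In such bulk material, fewer cells of a type and less RNA per cell cannot be told apart.

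Per kilobase of exon, Cd74 was the most abundant member, with a mean of 328 normalized counts per kb over the 10 libraries. H2-Ab1, H2-Eb1 and H2-Aa followed with mean levels of 169, 139 and 135 normalized counts per kb. H2-DMb1, Cd86, Cd80 and H2-DMa had 40.5, 26.6, 25.1 and 20.1, and Ciita had the lowest level, 6.04. The neighbours H2-Ab1, H2-Eb1 and H2-Aa were close, but per kb the order of H2-Ab1 over H2-Aa held in each library, whereas H2-Eb1 and H2-Aa changed places between libraries. Cd86, Cd80 and H2-DMa likewise did not keep 1 order. These orders depend on the exon lengths used, 4292 bases for H2-Aa and 2568 for H2-Ab1. Without division by length, H2-Aa was above H2-Ab1 in each library, with means of 582 and 434 normalized counts. On that scale the mean of H2-DMa, 87.1, was above that of H2-DMb1, 68.2. The H2 genes lie together on chromosome 17 (GRCm39, GENCODE M39), with H2-Ab1 at 34476663 to 34488393, H2-Aa at 34493404 to 34506798 and H2-Eb1 at 34504236 to 34535648, and H2-DMa and H2-DMb1 further along the same region at 34338515 to 34358958 and 34372046 to 34379204. Ciita, Cd80 and Cd86 lie on chromosome 16, at 10297923 to 10347694, 38275923 to 38316697 and 36424044 to 36486443. The gene models of H2-Aa and H2-Eb1 share 2563 bases on opposite strands, and the reads had been counted by strand. The longest coding transcripts of H2-DMb1 and its neighbour H2-DMb2 were identical at 89.5% of 1384 aligned bases, so how their reads were divided is uncertain.

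The class II chains and Cd74 were high in the same 3 libraries and low in the other 7. The normalized counts of H2-Aa were 319, 318 and 430.3 in libraries 13, 19 and 20 (MI), 1212, 395 and 1041 in libraries 15, 17 and 18 (MI + MSC), 297 and 396 in libraries 21 and 22 (Blood) and 351 and 1056 in libraries 23 and 24 (Blood + MSC), and the genes below are given in the same order of libraries. MI + MSC 15 and 18 and Blood + MSC 24 stood at 1041 or above, and the other 7 libraries lay between 297 and 430.3, so that MI + MSC 17 was inside the range of MI and Blood + MSC 23 inside that of Blood.
H2-Ab1, its β chain partner, had 244, 292 and 337 (MI), 934, 266 and 797 (MI + MSC), 184 and 274 (Blood) and 270.0 and 743 (Blood + MSC). The same 3 libraries were highest, at 743 to 934, and the rest lay between 184 and 337.
H2-Eb1 had 193, 177 and 262 (MI), 763, 241 and 641 (MI + MSC), 169.6 and 258 (Blood) and 215 and 700.3 (Blood + MSC). Again the 3 libraries reached 641 to 763, and the 7 others did not exceed 262.
Cd74, the invariant chain, had 529, 527 and 620.2 (MI), 1271, 556 and 1298 (MI + MSC), 339 and 790.1 (Blood) and 658 and 1655 (Blood + MSC). Its highest library was Blood + MSC 24, followed by MI + MSC 18 and 15, and Blood 22 came next.

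**Figure D1:**
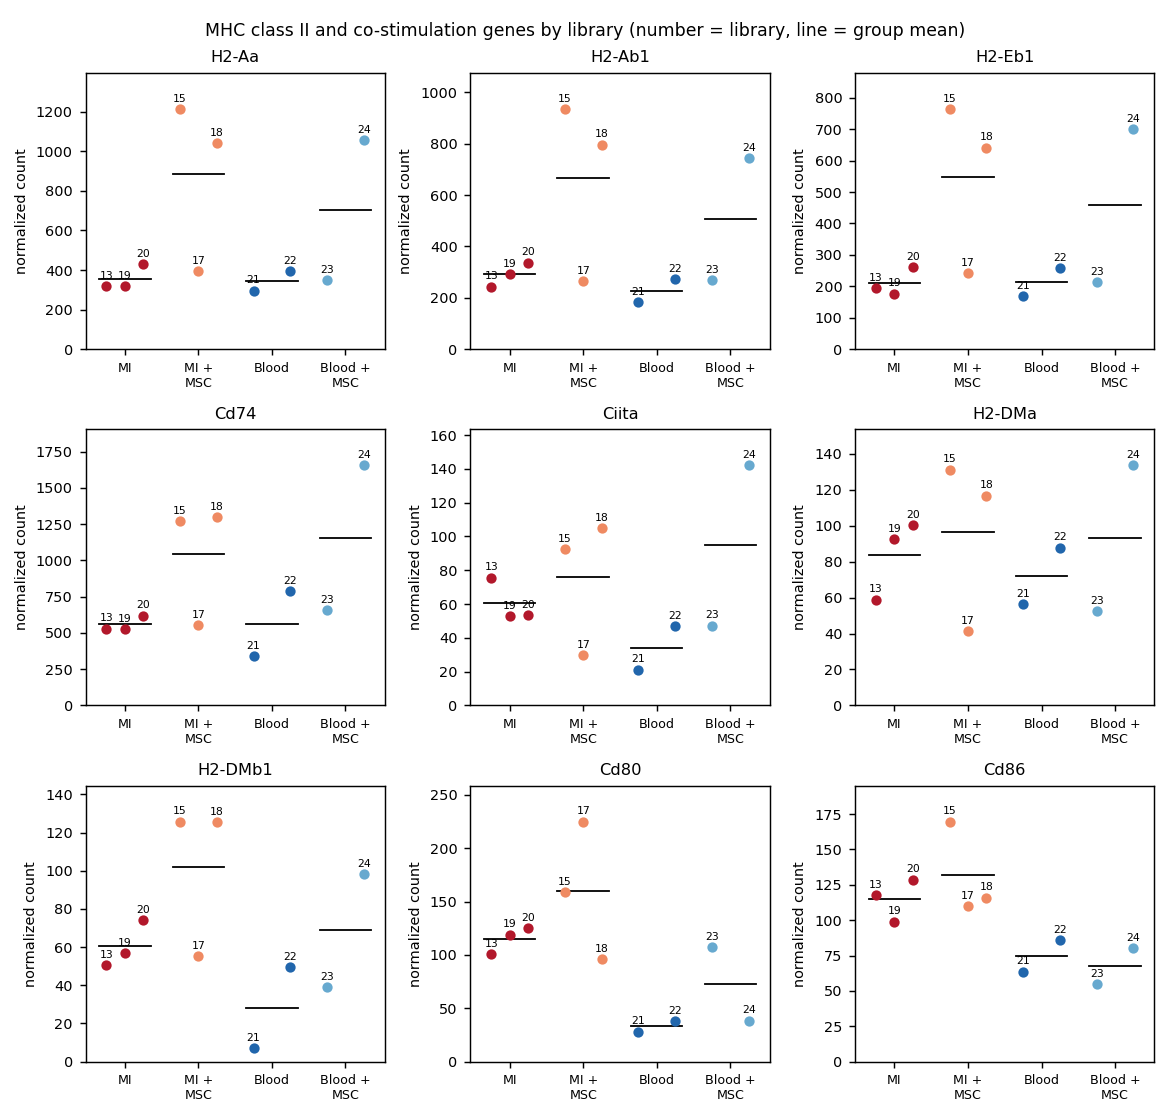
Normalized counts (y axis) of the 9 members in each library, by group (x axis); each point is 1 library with its number, and the line is the group mean. The 7 class II genes have their 3 highest points in MI + MSC 15, MI + MSC 18 and Blood + MSC 24, while Cd80 is highest in MI + MSC 17 and Cd86 in MI + MSC 15.

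Ciita and the H2-DM genes, with far fewer reads, had the same 3 highest libraries. Ciita had 75.6, 52.9 and 53.5 (MI), 92.6, 29.8 and 105 (MI + MSC), 21.2 and 46.8 (Blood) and 47.3 and 142 (Blood + MSC) normalized counts. Its value in Blood 21 was 3 reads and that in MI 13 was 9 reads, so the lower end of its range is imprecise. H2-DMa, the α chain of the peptide exchanger, had 58.8, 92.3 and 100.4 (MI), 131, 41.3 and 117 (MI + MSC), 56.5 and 87.7 (Blood) and 52.5 and 133 (Blood + MSC). The highest level of H2-DMa was 3.23 times the lowest, which was MI + MSC 17. H2-DMb1, the β chain, had 50.4, 56.7 and 74.1 (MI), 126, 55.1 and 125 (MI + MSC), 7.07 and 49.4 (Blood) and 39.1 and 98.4 (Blood + MSC). Blood 21 held 1 read of H2-DMb1. The other 9 libraries ranged over 3.21-fold.

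In all, 7 of the 9 members, every class II gene but neither Cd80 nor Cd86, had MI + MSC 15, MI + MSC 18 and Blood + MSC 24 as their 3 highest libraries, also when reads were scaled to library totals. The same 3 libraries were the highest of 54 of the 11549 genes tested, or 0.468%. This pattern was chosen after the members' values were seen and is given as a description. Of the genes on the other lists that were tested, 1 shared it, Ifi30, a thiol reductase of antigen processing. Since 2 of the 3 libraries were from hearts and 1 from blood, and since MI + MSC 17 and Blood + MSC 23 did not share the high levels, the libraries given MSC did not behave alike.

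Within a library the class II chains kept nearly fixed proportions. The ratio of H2-Aa to H2-Eb1, each per kb, was 0.999, 1.09 and 0.993 (MI), 0.961, 0.991 and 0.982 (MI + MSC), 1.06 and 0.928 (Blood) and 0.988 and 0.912 (Blood + MSC). It thus stayed between 0.912 and 1.09 (median 0.990) while the level of H2-Aa spanned 4.08-fold. H2-Aa to H2-Ab1 ranged from 0.651 to 0.967 (median 0.783) and Cd74 to H2-Aa from 1.79 to 3.41 (median 2.57), both within 2-fold over the 10 libraries. H2-Aa to H2-DMa ranged more widely, from 3.48 to 9.64, and all 3 MI + MSC libraries (9.33, 9.64 and 9.01) lay above the 3 MI libraries (5.48, 3.48 and 4.33). The H2-DMa values behind 2 of these ratios were 7 reads in MI 13 and 18 reads in MI + MSC 17. The separation was not particular to H2-DMa. H2-Aa to Ciita was 10.9, 15.5 and 20.7 (MI) and 33.7, 34.0 and 25.5 (MI + MSC). H2-Aa to Cd86 was also higher in each MI + MSC library than in each MI library. H2-Aa to H2-Eb1, Cd74 to H2-Aa and H2-DMa to H2-DMb1 were each lower in MI + MSC without overlap. The share of all gene pairs that separate so was not measured. H2-Aa to Cd86 had the range 2.43 to 11.8, and its 3 highest values were again MI + MSC 15, MI + MSC 18 and Blood + MSC 24. The ratio of Cd86 to Cd80 did not follow the class II genes and was lowest in MI + MSC 17 and Blood + MSC 23, at 0.526 and 0.548.

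**Figure D2:**
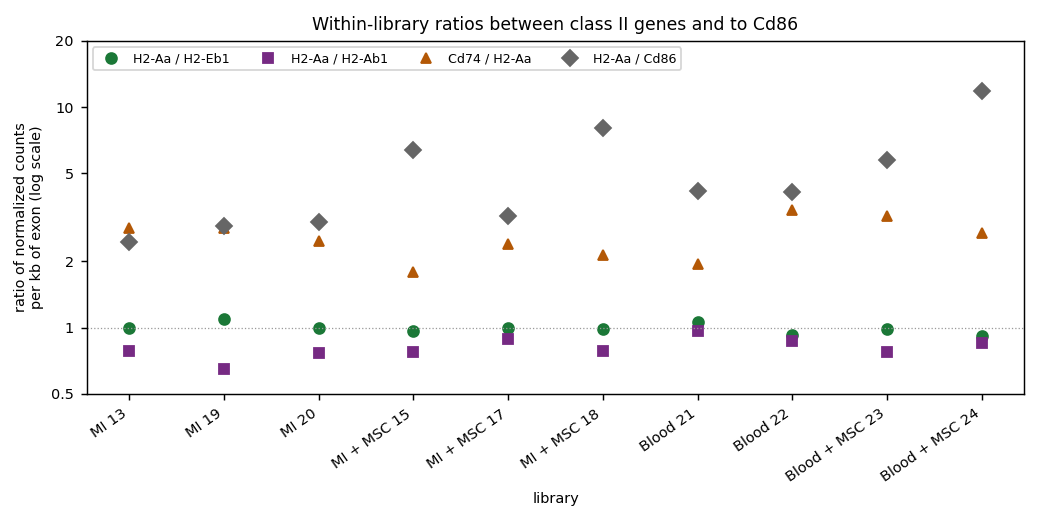
Ratios of normalized counts per kb of exon (y axis, log scale) in each of the 10 libraries (x axis); each symbol is 1 pair of genes. H2-Aa to H2-Eb1 stays near 1 (0.912 to 1.09), whereas H2-Aa to Cd86 ranges from 2.43 to 11.8.

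Markers of other class II cells were set beside these levels, and their part in the class II result was not tested. The summed level of the 7 class II genes was 1471, 1516 and 1878 (MI), 4530.1, 1584 and 4125 (MI + MSC), 1074 and 1901 (Blood) and 1632 and 4529 (Blood + MSC) normalized counts. The 12 macrophage and monocyte markers summed to 3404, 8703 and 8811 (MI), 10928, 5992 and 12316 (MI + MSC), 8351 and 7188 (Blood) and 5920.1 and 7577 (Blood + MSC). Among the cardiac libraries, MI + MSC 15 and 18 had the highest sums of both lists, and among the blood libraries Blood 21 had the highest macrophage sum but the lowest class II sum. All 12 of these markers were detected in every library.
The 8 B cell markers summed to 227, 132 and 122 (MI), 138, 133 and 159 (MI + MSC), 56.5 and 454 (Blood) and 127 and 544 (Blood + MSC). Blood + MSC 24 had the highest B cell sum of all libraries and Blood 22 the next, with class II sums of 4529 and 1901. Cd79a, which encodes a chain of the B cell receptor complex, was at 0 reads in MI 13 and Blood 21 and between 4.59 and 101 normalized counts elsewhere.
The 10 dendritic cell markers summed to 378, 226 and 234 (MI), 306, 266 and 243 (MI + MSC), 134 and 336 (Blood) and 284 and 411 (Blood + MSC). Blood + MSC 24 was highest on this list, and MI + MSC 15 and 18 lay within the range of the MI libraries only through MI 13, whose sum was 45 reads, and above MI 19 and 20. Of the 6 dendritic cell markers tested in MI + MSC against MI, 4 had a log2 fold change above 0 and 2 below (median 0.38), and none passed. Itgax was at 0.52 and Zbtb46 at -1.83. Xcr1, a defining gene, was at 0 in both Blood libraries. The 12 neutrophil markers summed to 2547, 8091 and 5996 (MI), 8215, 13564 and 2819 (MI + MSC), 44788 and 53435 (Blood) and 23725 and 16764 (Blood + MSC). Blood + MSC 24 had the lowest sum of the blood libraries, and MI + MSC 18 had a lower sum than MI + MSC 15 and 17. The 10 T cell markers summed to 10.2 to 202 normalized counts, highest in MI 13.

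**Figure D3:**
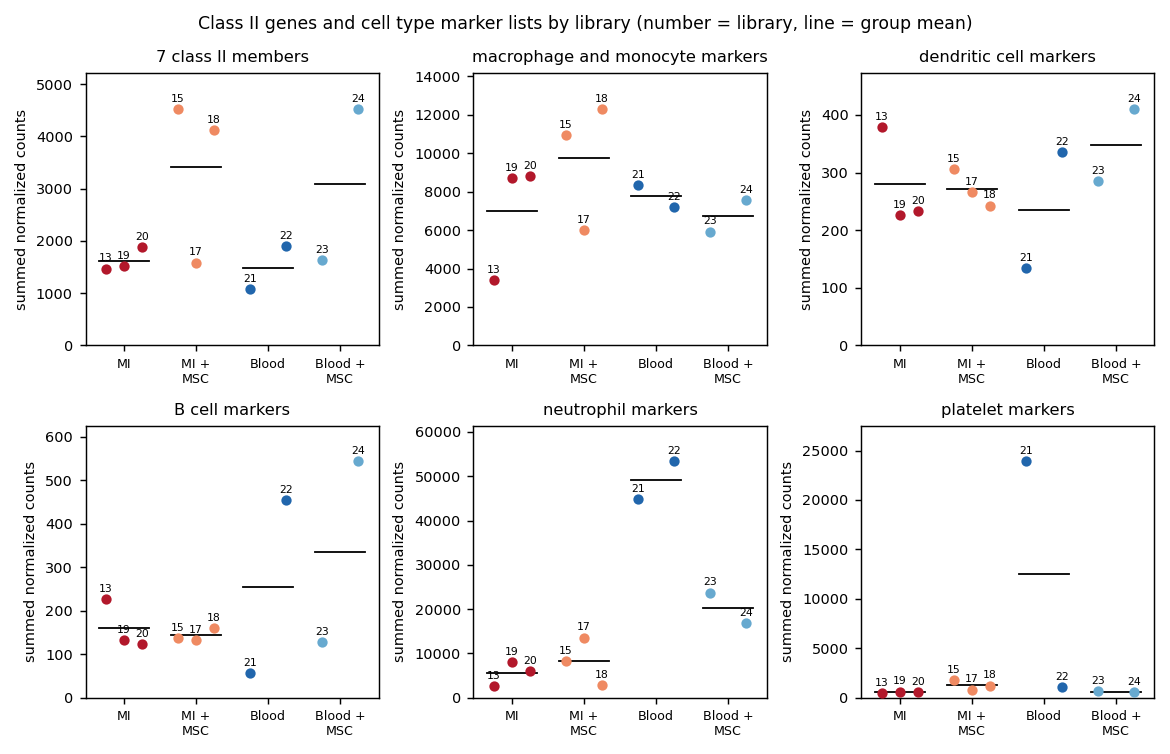
Summed normalized counts (y axis) of the 7 class II members and of 5 lists of cell type markers in each library, by group (x axis); each point is 1 library with its number, and the line is the group mean. The class II sums of MI + MSC 15, MI + MSC 18 and Blood + MSC 24 are 4530, 4125 and 4529, and the 7 others are between 1074 and 1901.

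The first question of the design was whether MSC given to the mouse changed these genes in cardiac cells. The mean level in MI + MSC exceeded that in MI for 9 of 9 members (8 of 9 with scaling by library size, under which H2-DMa was at -0.055), and none passed the test. H2-Aa had 883 ± 431 (SD; n = 3) normalized counts with MSC and 356 ± 64.4 (SD; n = 3) without, a log2 fold change of 1.17 ± 0.48 (SE) with an adjusted p of 0.611 (limma on log2 of the normalized count plus 2, Benjamini-Hochberg over all 11549 genes tested). H2-Eb1 and H2-Ab1 had log2 fold changes of 1.23 ± 0.50 (SE) and 1.01 ± 0.49 (SE), and Cd74 had 0.80 ± 0.47 (SE), with adjusted p of 0.609, 0.629 and 0.653. H2-DMb1 had 0.66, Cd80 0.39, Cd86 0.17, Ciita 0.15 and H2-DMa 0.07 on the same scale. For every member the groups overlapped, since MI + MSC 17 or 18 lay within or below the range of MI, whereas 7.05% of all genes tested were higher in MI + MSC without overlap. The members' median log2 fold change was 0.66, against -0.01 over all genes tested. In the same comparison all 7 endothelial markers had a log2 fold change below 0, with a median of -1.60 and sums of 426 to 807 normalized counts in MI + MSC and 1745 to 1896 in MI. All 6 cardiomyocyte markers were also below 0, with a median of -1.43, while 7 of 12 macrophage and monocyte markers were above 0, with a median of 0.29. None of these markers passed in limma, and their part in the members' differences was not tested. Over all genes 0 of 11549 (0%) passed in this limma comparison, with 925 at an unadjusted p under 0.05, and edgeR, DESeq2 and limma-voom called 0, 79 and 261 genes and no member. Without MI 13, 8 of 9 members were still above 0, and without MI + MSC 15 the number was 6 of 9.

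In blood the same question rested on 2 libraries per group. Mean levels were higher in Blood + MSC than in Blood for 8 of 9 members, the exception being Cd86 with a log2 fold change of -0.15 ± 0.34 (SE), or 0.14 with scaling by library size. H2-DMb1 had 1.57 ± 0.72 (SE), Ciita 1.32 ± 0.64 (SE), Cd74 1.01 ± 0.57 (SE), H2-Ab1 0.99 ± 0.60 (SE), Cd80 0.93 ± 0.49 (SE), H2-Eb1 0.89 ± 0.61 (SE), H2-Aa 0.83 ± 0.59 (SE) and H2-DMa 0.25 ± 0.58 (SE). None passed, with adjusted p between 0.672 and 0.949. The groups did not overlap for Ciita and Cd80, 2 of 9 members, where 21% of all genes tested were higher in Blood + MSC without overlap. For Ciita the margin was small, 47.3 in Blood + MSC 23 against 46.8 in Blood 22. The members' median was 0.93 and that of all genes 0.11. In the same comparison 7 of 8 B cell markers were above 0 (median 0.90), as were 5 of 6 dendritic cell markers (0.70). Of 12 macrophage and monocyte markers, 5 were above 0 and 7 below (-0.22). Of 12 neutrophil markers, 11 were below 0 (-1.64), with Ly6g at -2.83, and all 5 platelet markers were below 0 (-4.10). None of these markers passed in limma, and their part in the members' differences was not tested. Over all genes 0 of 11549 (0%) passed, with 848 at an unadjusted p under 0.05, and edgeR, DESeq2 and limma-voom called 0, 179 and 0 genes and no member. Without Blood 21, the shallow library rich in platelet genes, 7 of 9 members were above 0 and the log2 fold changes of the class II genes ran from -0.06 to 0.79. Without Blood 22 the call set held 1 member, H2-DMb1, at a log2 fold change of 2.83, which then rested on the 1 read of Blood 21. In that setting 1506 of the 11549 genes (13%) were called.

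Whether the MSC effect differed between heart and blood was tested as an interaction. None of the 9 members passed, nor did any of the 11549 genes tested (0%) in limma, with 838 at an unadjusted p under 0.05. DESeq2 called 20 genes, edgeR and limma-voom called 0, and limma without Blood 22 called 1095, with no member among them in any of these. The difference of the 2 log2 fold changes was 0.34 ± 0.76 (SE) for H2-Aa, 0.35 ± 0.78 (SE) for H2-Eb1 and 0.02 ± 0.78 (SE) for H2-Ab1. For Ciita it was -1.18 ± 0.83 (SE), the largest in size of the 9, with a 95% interval of -2.99 to 0.64. Intervals of this width include differences as large as the fold changes themselves.

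**Figure D4:**
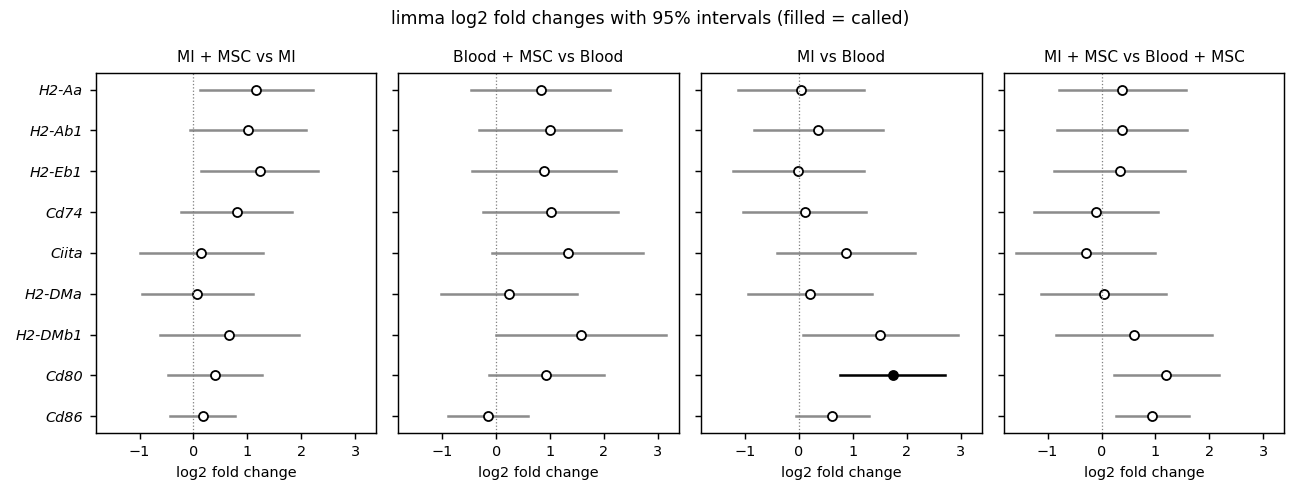
log2 fold changes of the 9 members (x axis; limma on log2 of the normalized count plus 2) in 4 comparisons, with 95% intervals as lines; filled points passed the test (adjusted p under 0.05 and a log2 fold change of at least 0.5 in size). Cd80 in MI against Blood, at 1.74, is the 1 filled point of 36.

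The design also set cardiac against blood cells, without and with MSC. Cd80 had 101, 119 and 125 (MI), 159, 225 and 96.3 (MI + MSC), 28.3 and 38.3 (Blood) and 107 and 38.5 (Blood + MSC) normalized counts. All 3 MI libraries lay above both Blood libraries, and with MSC the groups overlapped because Blood + MSC 23 was above MI + MSC 18. Cd80 was higher in MI, at 115 ± 12.6 (SD; n = 3), than in Blood, at 33.3 ± 7.12 (SD; n = 2), with a log2 fold change of 1.74 ± 0.44 (SE) and an adjusted p of 0.0128. It was the 1 member of 9 that rose, where 21.2% of all genes tested were called higher and 13.5% lower. The Blood values of Cd80 were 4 and 59 reads, and without Blood 21 the adjusted p was 0.0645 at a log2 fold change of 1.53, so the call was lost, as it was with limma-voom (adjusted p = 0.0983). In MI + MSC against Blood + MSC the log2 fold change of Cd80 was 1.20 ± 0.44 (SE) with an adjusted p of 0.0921. The 2 comparisons share no library, but their difference was tested only as the interaction above, in which Cd80 had -0.54 ± 0.63 (SE).

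Cd86, the ligand that antigen-presenting cells carry at rest, had 118, 99 and 129 (MI), 169.7, 110.2 and 116 (MI + MSC), 63.6 and 85.8 (Blood) and 54.9 and 80.1 (Blood + MSC) normalized counts. Every cardiac library lay above every blood library, with 99.0 as the lowest cardiac and 85.8 as the highest blood value. Of all genes tested, 31.6% were higher in MI than in Blood without overlap, and 33.8% in MI + MSC than in Blood + MSC. The share that separates all cardiac from all blood libraries was not measured. The log2 fold change was 0.62 ± 0.31 (SE) in MI against Blood and 0.94 ± 0.31 (SE) in MI + MSC against Blood + MSC, with adjusted p of 0.137 and 0.0624, so neither passed. With MSC, 8.23% of all genes tested were called higher in the heart and 5.85% lower, and no member was. DESeq2 and edgeR put the adjusted p of Cd86 with MSC at 0.0191 and 0.0322, past the threshold, and fitting the 5 libraries of the 2 groups alone gave 0.0277.

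No class II gene passed in the comparisons by tissue. In MI against Blood, H2-Aa had a log2 fold change of 0.04 ± 0.54 (SE), H2-Eb1 -0.01 ± 0.55 (SE), Cd74 0.11 ± 0.52 (SE), H2-DMa 0.21 ± 0.53 (SE) and H2-Ab1 0.36 ± 0.55 (SE), and the signs of H2-Aa, H2-Eb1 and Cd74 changed with the scaling. The 95% interval of H2-Aa, -1.14 to 1.22, still includes a 2-fold difference in either direction. Ciita at 0.88 ± 0.59 (SE) and H2-DMb1 at 1.51 ± 0.66 (SE) had adjusted p of 0.26 and 0.0933. Their MI libraries lay above both Blood libraries, as did those of Cd80 and Cd86, which makes 4 of 9 members where 31.6% of all genes tested were higher in MI without overlap. Without Blood 21, H2-DMb1 was at a log2 fold change of 0.26, and the log2 fold changes of the 7 class II genes ran from -0.50 to 0.34. With MSC, the class II log2 fold changes of MI + MSC against Blood + MSC ran from -0.30 for Ciita to 0.60 for H2-DMb1, and 1 of 9 members, Cd86, did not overlap where 33.8% of all genes were higher without overlap. These signs depended on the blood library, since without Blood + MSC 23 all 7 class II genes were below 0 and without Blood + MSC 24 all 7 were above 0. The members' median was 0.36 in MI against Blood and 0.38 with MSC, beside 0.15 and 0.09 over all genes tested.

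Other genes of the pathway were read from lists chosen by function. In the MSC comparisons 0 of their genes passed in either tissue. The median log2 fold changes in MI + MSC against MI were 0.07 for 9 class II transcription genes, 0.81 for 9 processing and turnover genes, 0.41 for 7 genes of the interferon gamma axis and 0.96 for 9 other co-stimulation and checkpoint ligands, beside -0.01 over all genes tested. In Blood + MSC against Blood the same medians were 0.11, -0.25, 0.05 and 0.34, beside 0.11. The counts by tissue below stand beside 21.2% of all genes tested called higher and 13.5% lower in MI against Blood, and 8.23% and 5.85% in MI + MSC against Blood + MSC. Of the 5 further class II genes, 2 were tested, H2-DMb2 and H2-Ob (the β chain of the DM inhibitor H2-DO), and none passed in any comparison. H2-Ob, at 33.6, 22.1 and 20.6 (MI), 27, 16.1 and 29.2 (MI + MSC), 14.1 and 51.3 (Blood) and 17.1 and 57.2 (Blood + MSC) normalized counts, was highest in Blood 22 and Blood + MSC 24, and MI + MSC 15 and 18 lay above MI 19 and 20 and below MI 13, whose value was 4 reads. Of 9 class II transcription genes, 1 was lower in MI than in Blood, Spi1, the myeloid factor PU.1, with a log2 fold change of -2.10 ± 0.53 (SE) and an adjusted p of 0.0117. A share of 1 in 9 is near that of all genes. The RFX and NF-Y subunits did not pass in any comparison. Rfx5, the DNA-binding subunit of the RFX complex, had 33.6, 36.5 and 22.1 (MI), 25, 34.4 and 37.3 (MI + MSC), 7.07 and 18.2 (Blood) and 17.9 and 29.4 (Blood + MSC) normalized counts. MI + MSC 15 was within the range of the other cardiac libraries and MI + MSC 18 was just above it. The Rfx5 values of MI 13 and Blood 21, where 1 read was worth 8.40 and 7.07 normalized counts, were few reads.

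Of 9 processing and turnover genes tested, 1 was lower in MI than in Blood, Marchf1, a ubiquitin ligase that removes class II and Cd86 from the surface, with a log2 fold change of -1.78 ± 0.50 (SE) and an adjusted p of 0.0185, again 1 of 9 beside 13.5% of all genes. Ctss, the protease that trims Cd74, had 345, 1450.5 and 1254 (MI), 2056, 1421 and 1885 (MI + MSC), 1342 and 1845 (Blood) and 1263 and 1440.3 (Blood + MSC) normalized counts, and Ifi30 had 118, 262 and 244 (MI), 331, 211 and 351 (MI + MSC), 205 and 315 (Blood) and 256 and 369 (Blood + MSC). Ifi30 was highest in the same 3 libraries as the class II genes, with smaller differences. In the interferon gamma axis, 7 of 8 genes were tested. Ifngr1 (a receptor chain), Jak1 and Jak2 (its kinases) were lower in MI than Blood, at log2 fold changes of -1.12, -1.53 and -1.18 and adjusted p of 0.0346, 0.00801 and 0.0286. In MI + MSC against Blood + MSC, Jak1 was again lower in the heart, at -1.29, and Socs1, a feedback inhibitor, was higher, at 1.78, with adjusted p of 0.0331 and 0.0453. Both of these calls were lost without any 1 of MI 19, MI + MSC 15, MI + MSC 17 and MI + MSC 18. The Socs1 call was also lost with TMM scaling and with 1 in place of 2 added to the normalized counts. Irf1, a transcription factor upstream of Ciita, had 176, 408 and 364 (MI), 831, 854 and 304 (MI + MSC), 438 and 469 (Blood) and 473 and 452 (Blood + MSC) normalized counts. MI + MSC 15 and 17 were its highest libraries, and MI + MSC 18 was within the MI range. The part of Irf1 in the class II levels was not tested. Beside these tissue differences, 10 of the 12 neutrophil markers were lower in MI than in Blood, and their part in them was not tested.

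The last list held other co-stimulation and checkpoint ligands. Of 9 tested, 4 were higher in MI than in Blood and 1 lower, and in MI + MSC against Blood + MSC 4 were higher and 0 lower, where 21.2%, 13.5%, 8.23% and 5.85% of all genes tested were called in the same comparisons and directions. Their median log2 fold changes were 0.46 and 1.47, beside 0.15 and 0.09 over all genes tested. Cd83, which stabilises class II and Cd86 at the surface, had 33.6, 77.9 and 147 (MI), 299, 124 and 316 (MI + MSC), 7.07 and 9.1 (Blood) and 12.1 and 13 (Blood + MSC) normalized counts. In MI 13 and Blood 21, 1 read was worth 8.40 and 7.07 normalized counts, so the Cd83 values there were few reads. Every cardiac library was above every blood library, with log2 fold changes of 2.90 ± 0.56 (SE) in MI against Blood and 3.98 ± 0.56 (SE) with MSC and adjusted p of 0.0033 and 0.00144. Of all genes tested, 31.6% and 33.8% were higher in the heart without overlap in these comparisons. Icam1, an adhesion ligand of T cell LFA-1, had 151, 348 and 506 (MI), 1430.3, 1295 and 523 (MI + MSC), 106 and 58.5 (Blood) and 107 and 94.2 (Blood + MSC). Its log2 fold changes were 1.90 ± 0.54 (SE) and 3.28 ± 0.54 (SE) (adjusted p = 0.0202 and 0.00311), and MI + MSC 15 and 17 were its highest libraries, as for Cd80.
Cd276, also called B7-H3, rose by 3.79 and 2.92 on the log2 scale (adjusted p = 0.00067 and 0.00596), with 0 and 4 reads in Blood 21 and 22. Tnfsf9, the 4-1BB ligand, rose in MI against Blood, at 1.86 (adjusted p = 0.0489), with 0 reads in Blood 21. Its call was lost with DESeq2, edgeR, limma-voom and TMM scaling, and with 5 in place of 2 added to the normalized counts. It was also lost without any 1 of MI 19, MI 20, MI + MSC 15, MI + MSC 17 and MI + MSC 18. Cd274, which encodes PD-L1, was higher in MI + MSC than in Blood + MSC, at 2.04 (adjusted p = 0.0162). Vsir, the checkpoint molecule VISTA, fell in MI against Blood by 1.53 on the log2 scale (adjusted p = 0.0306), with 395 to 1064 normalized counts in MI and 1915 and 2522 in Blood. Markers of other cell types were set beside these ligands, and their part in the result was not tested. All 6 cardiomyocyte markers were called higher in the heart in both comparisons (median log2 fold changes 9.03 and 7.75), as were 4 of 7 endothelial markers in each (5.57 and 3.56). The endothelial sum in Blood 21 was 1632 normalized counts, although Kdr, Tie1 and Egfl7 were at 0 reads there. Blood 21 was also the library with the highest platelet sum, and the part of platelets in its endothelial sum was not tested. Of 12 macrophage and monocyte markers, 2 were called higher in MI than in Blood, Fcgr1 among them, beside 21.2% of all genes, with 5 above 0 and 7 below (median -0.38). In MI + MSC against Blood + MSC 3 of 12 were called higher, Fcgr1 and Cd68 among them, with 10 above 0 and 2 below (median 0.52).
The pathway lists held 10 calls in MI against Blood and 6 in MI + MSC against Blood + MSC, and none changed direction under the alternatives tried. Without Blood 21, 6 of the 10 held (not Ifngr1, Jak2, Tnfsf9 and Vsir), and without Blood 22, 4 held (not Icam1, Ifngr1, Jak2, Marchf1, Spi1 and Vsir). Of the 6, 3 held without Blood + MSC 23 (Cd83, Cd276 and Icam1), 2 without Blood + MSC 24 (Cd83 and Icam1) and 3 without MI + MSC 15 (not Cd274, Jak1 and Socs1). Among the markers, Fcgr1 lost its call in MI against Blood without Blood 22 and in MI + MSC against Blood + MSC without Blood + MSC 23, and Cd68 lost its call without any 1 of Blood + MSC 23, Blood + MSC 24, MI + MSC 15 and MI + MSC 18.

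**Figure D5:**
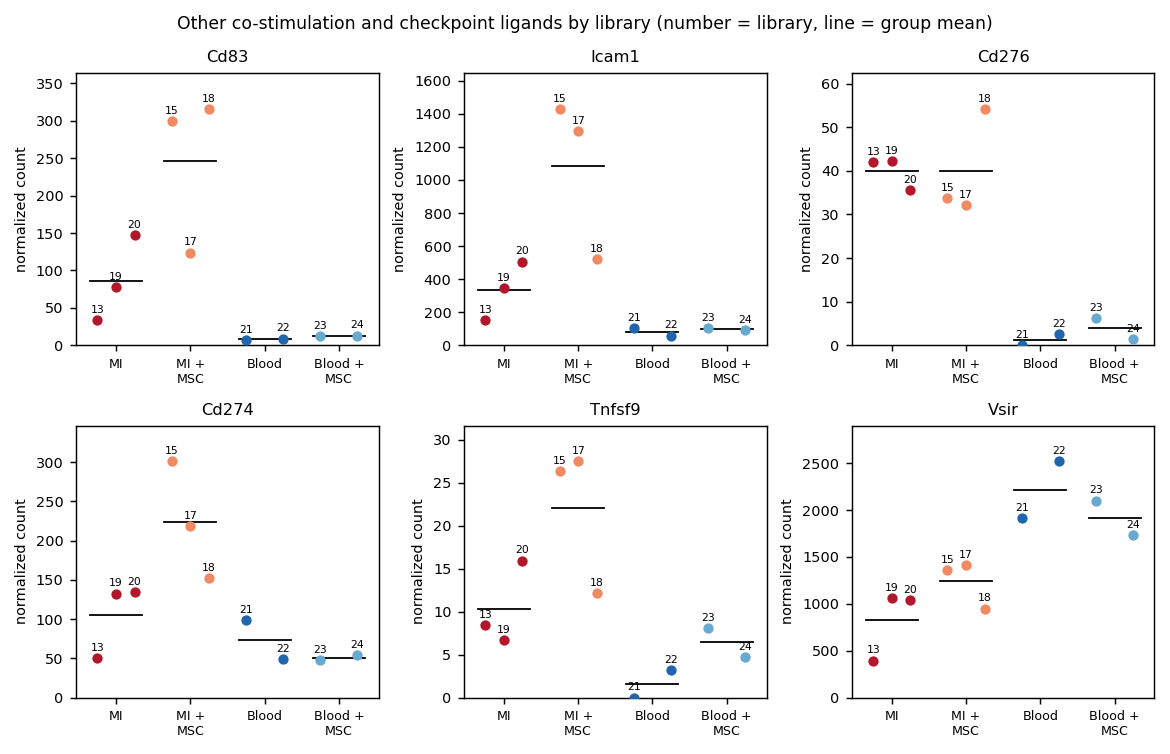
Normalized counts (y axis) of 6 other co-stimulation and checkpoint ligands in each library, by group (x axis); each point is 1 library with its number, and the line is the group mean. Cd83, Icam1 and Cd276 are higher in all 6 cardiac than in all 4 blood libraries, and Vsir is lower in them. The share of all genes that separate so was not measured.

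The likeness of other genes to these patterns was measured as Pearson's r over the 10 libraries on the log2 scale. The libraries of a group share their tissue and treatment, and depth differed between libraries, so the values are descriptions without a test. To the mean of the standardised levels of Cd74, H2-Aa, H2-Ab1 and H2-Eb1, the members outside it had r of 0.83 (Ciita), 0.79 (H2-DMa), 0.79 (H2-DMb1), 0.43 (Cd86) and 0.07 (Cd80). Among non-members the 8 most alike were Ufc1 (r = 0.88), Vapb (0.86), Prpf19 (0.84), Tcirg1 (0.84), Wls (0.81), Cab39l (0.81), Abi3 (0.81) and Abhd12 (0.80). Cd80 and Cd86 had r of 0.59 with each other. Most like Cd86 were Slc46a3 (0.97), Tmem160 (0.95), Acp5 (0.94), Gnaq (0.93) and Gpr171 (0.93), and most like Cd80 were Ppp1r15a (0.97), 1700017B05Rik (0.96), Mir1938 (0.94), Cwc25 (0.94) and Smad7 (0.94). Cd80 had r between -0.16 and 0.49 with the 7 class II genes, against 0.32 to 0.66 for Cd86.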

How the data were processed

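Per the labels and the study's methods, the authors depleted ribosomal RNA, sequenced stranded paired-end libraries, trimmed reads with Trimmomatic, removed PCR duplicates with Picard, aligned to GRCm39 with STAR, counted reads by gene and strand with featureCounts and left out mitochondrial reads. The deposited values are a signal per gene, whole read counts divided by a DESeq2 size factor per library. Dividing by the value of 1 read gave whole reads for 100% of values (within 0.1 read), and 0 columns had no sample. The second deposited table held the same 281850 values.

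Groups followed the labels. Genes whose mean over the libraries reached 10 normalized counts (11549, all 9 members among them) were tested with limma 3.58.1 (R 4.3.3) on log2(normalized count + 2), with 1 mean per group over all 10 libraries, an intensity trend and Benjamini-Hochberg adjustment over all genes tested. A call needed an adjusted p under 0.05 and a log2 fold change of at least 0.5 in size, the thresholds of the study. Fold changes are on this scale and understate changes of low genes. edgeR 4.0.16, DESeq2 1.42.0 and limma-voom on the recovered reads were alternatives. The script was tested on simulated data. Depth limits the precision of each value: 3 reads were 25.2 normalized counts in MI 13 and 0.505 in Blood + MSC 24. Exon lengths came from GENCODE M39, as the union of all exons of each gene. They may differ from those in the annotation used for counting.

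The members and lists were chosen with earlier results of these data known. Named were the 9 members, per list the called genes with the largest change (at most 4 per comparison) or otherwise genes of high mean level, and the genes most alike. H2-Ob, Rfx5, Irf1, Ifi30 and markers given by value were chosen after their values were seen.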

Additional observations from a re-analysis of the deposited data

How the results depend on the processing

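Of 36 fold changes (9 members in 4 comparisons), 20 kept their sign under all 21 alternatives and 16 did not. No value past the threshold changed sign. Depth is the main limit, with 1 to 9 reads per member for 5 of the 9 members in MI 13 or Blood 21. No paired analysis was possible because the groups share no replicate numbers and the labels name no animal.

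Without MI 13 and Blood 21, log2 fold changes were -0.47 (Cd74) and -0.10 (H2-Aa) in MI against Blood, -0.062 (H2-DMa) in Blood + MSC against Blood and -0.16 (H2-DMa) in MI + MSC against MI. In MI against Blood, scaling by TMM gave -0.037 (Cd74) and -0.10 (H2-Aa), and edgeR gave -0.086 and -0.012. TMM gave -0.091 for H2-DMa in MI + MSC against Blood + MSC. Scaling by library size gave 0.51 for H2-Eb1 in MI against Blood, 0.14 for Cd86 in Blood + MSC against Blood and -0.055 for H2-DMa in MI + MSC against MI. That scaling moved the median of all genes in MI against Blood from 0.15 to 0.63.

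Members called in MI against Blood numbered 3 with library-size scaling (Cd80, Cd86 and H2-DMb1), 0 with limma-voom and 0 to 2 with a library left out (0 without Blood 21, and Cd80 and H2-DMb1 without Blood 22). In MI + MSC against Blood + MSC they numbered 1 with library-size scaling (Cd80), 1 with edgeR, 1 with DESeq2 and 1 with only the groups compared (Cd86), 2 with limma-voom and 2 without MI 13 and Blood 21 (both ligands), and 0 to 1 with a library left out (Cd86 without MI 13, Blood 21 or Blood 22). In Blood + MSC against Blood they were 0 to 1. The share of all genes called was 39.7% with library-size scaling, 22.4% with limma-voom, 29.6% without Blood 21 and 33.7% without Blood 22 in MI against Blood. In MI + MSC against Blood + MSC it ran from 2.3% (without Blood + MSC 23) to 42.3% (limma-voom), with 14.4% for library-size scaling, 32% for edgeR, 29% for DESeq2, 34.7% with only the groups compared and 41.3% without MI 13 and Blood 21. With only the groups compared, 2 of the 10 pathway calls in MI against Blood held (Cd83 and Cd276), while limma-voom held 6 and lost Cd83, Cd276, Ifngr1 and Tnfsf9 (adjusted p = 0.0510 for Cd83 and 0.0677 for Cd276). The causes were not tested.

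With 1 library left out, in MI + MSC against Blood + MSC the ranges were -0.77 to 0.56 (Cd74), -1.07 to 0.48 (Ciita), -0.41 to 1.17 (H2-Aa), -0.35 to 1.11 (H2-Ab1), -0.51 to 1.19 (H2-Eb1), -0.62 to 0.69 (H2-DMa) and -0.041 to 1.25 (H2-DMb1), each set by Blood + MSC 23 and 24. In MI against Blood they were -0.50 to 0.71 (Cd74), -0.17 to 0.25 (H2-Aa), -0.31 to 0.29 (H2-Eb1) and -0.10 to 0.52 (H2-DMa), set by Blood 21 and 22. In MI + MSC against MI they were -0.018 to 0.29 (Cd86), -0.17 to 0.70 (Ciita) and -0.22 to 0.59 (H2-DMa), and in Blood + MSC against Blood -0.42 to 0.11 (Cd86) and -0.41 to 0.90 (H2-DMa). Where a group was left with 1 library, that library was assumed to vary like the other groups.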
